A study of Mus musculus with 4 samples.

Results

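The genes described here are 9 adhesion molecules of lymphocytes: the integrin chains Itga4, Itgb1, Itgb7, Itgal and Itgb2, the integrin counter-receptors Icam1 and Icam2, the hyaluronan receptor Cd44 and the selectin ligand Selplg. They were taken by gene symbol from a fixed list, and all 9 were found among the 24411 gene symbols of the deposited tables. RNA came from B cells sorted for B220, a CD45 isoform carried by the B lineage, out of mouse tibia and femur marrow. The study holds 2 libraries labelled wildtype and 2 labelled Arid5b overexpression, Arid5b being a chromatin protein of the ARID family, which binds AT-rich DNA. The labels name no strain, age, treatment, transgene or promoter, so how Arid5b was raised and in which cells is not given in the sources used here. Nothing in the labels says whether the libraries of a group come from separate mice, so p-values measure the spread between these libraries.

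Integrins are heterodimers of an alpha and a beta chain. The Itga4 chain pairs with the Itgb1 chain to form VLA-4, which binds VCAM1 on marrow stroma and vessels, or with the Itgb7 chain to form the receptor for the gut addressin MAdCAM1. The Itgal chain pairs with the Itgb2 chain to form LFA-1, which binds ICAM family proteins on other leukocytes and on endothelium. Developing B cells in marrow are held by VLA-4, whereas mature lymphocytes use LFA-1, VLA-4 and, for gut tissue, the Itgb7 integrin to leave the blood.

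The libraries held 14196665 to 20356404 reads assigned to genes. The libraries did not all follow their labels. Arid5b stood at 148.6 and 173.6 CPM (reads scaled to a common library total) in wildtype libraries 1 and 2, and at 3804 and 136.1 CPM in overexpression-labelled libraries 1 and 2. Only the first of the overexpression-labelled libraries thus had more Arid5b than wildtype. Overexpression-labelled library 1 also stood apart across the 12617 genes tested, with a Pearson r of 0.786 to 0.792 with the other 3 libraries, which correlated at 0.964 to 0.982 with each other. Wildtype library 1 had 24 reads of Xist and 3260 of the Y-linked Ddx3y, while the other 3 libraries had at least 68540 reads of Xist and at most 1 of Ddx3y. By these genes the wildtype libraries differ in sex and thus came from different mice. The spread of the wildtype pair, used in the tests of single libraries below, includes that difference. All 10 B lineage markers examined had reads in every library. Their summed level was 15787 and 17300 CPM in wildtype libraries 1 and 2, and 3439 and 16209 CPM in the overexpression-labelled libraries 1 and 2. Most of that sum was Cd74, at 10219 and 10996 CPM in wildtype and 91.1 and 9993 CPM in the other libraries. Against that direction, Cd79b (400.2 CPM), Pax5 (320.4 CPM) and Ebf1 (931.0 CPM) were higher in overexpression-labelled library 1 than in either wildtype library, where they reached at most 171.9, 151.2 and 604.6 CPM. The 9 markers of pro-B and pre-B cells summed to 36.3 and 20.8 CPM in wildtype, and to 4133 and 9.58 CPM in overexpression-labelled libraries 1 and 2. Igll1 alone gave 2362 CPM of the sum in overexpression-labelled library 1. Kit (140 and 57 reads in wildtype, then 12) and Dntt (23 and 10, then 4) were lower there than in wildtype, and the rest of the list was higher. Igll1 and Vpreb1, components of the pre-B receptor, were at 0 reads in every library but overexpression-labelled library 1. The 11 neutrophil markers in the tables summed to 7.15 and 110.4 CPM in wildtype, and to 145.3 and 1633 CPM in the overexpression-labelled libraries 1 and 2. Monocyte markers summed to 34.7 to 218.2 CPM and T and NK cell markers to 2.68 to 56.9 CPM. Plasmacytoid dendritic cell markers summed to 162.7 to 439.9 CPM, of which Tcf4 alone gave 151.7 to 313.3 CPM. Siglech had 1129 and 321 reads in wildtype and 4 in overexpression-labelled library 1. Ccr9 (979 and 380, then 12), Klk1 (149 and 83, then 0) and Cox6a2 (34 and 11, then 1) were lower there too. Bst2 lay within the wildtype range there (12.8 and 9.58 CPM, then 9.82). Endothelial and stromal cell markers summed to 54.1 to 91.7 CPM, of which Pecam1 alone gave 52.8 to 88.1 CPM. Erythroid cell markers summed to 3.92 to 5.50 CPM, and their 4 globin genes were at 0 throughout. The part of any of these in the results below was not tested, and in bulk RNA fewer cells of a type cannot be told apart from less RNA per cell.

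RefSeq promoter entries (build GRCm38.p6) matched 5 of the 9 genes, namely Itga4, Itgb1, Itgb7, Cd44 and Icam1. Those of the 3 chains of the Itga4 integrins and of Cd44 are printed because these genes differ most plainly in direction below: Itga4, Itgb7 and Cd44 were lower and Itgb1 higher in overexpression-labelled library 1. Each run covers 240 bases, from 250 to 11 bases before the RefSeq start, 5′ to 3′ on the gene's strand. Capitals mark GGAAG or its reverse complement, a longer form of the GGAA core bound by ETS family factors. Sites with GGAA but not GGAAG were neither marked nor counted.
Itga4, chr2:79255176-79255415, plus strand: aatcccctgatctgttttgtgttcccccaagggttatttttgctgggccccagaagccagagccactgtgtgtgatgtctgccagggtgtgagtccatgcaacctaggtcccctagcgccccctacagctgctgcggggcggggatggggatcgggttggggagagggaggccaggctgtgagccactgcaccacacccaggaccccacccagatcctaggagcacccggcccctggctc
Itgb1, chr8:128685404-128685643, plus strand: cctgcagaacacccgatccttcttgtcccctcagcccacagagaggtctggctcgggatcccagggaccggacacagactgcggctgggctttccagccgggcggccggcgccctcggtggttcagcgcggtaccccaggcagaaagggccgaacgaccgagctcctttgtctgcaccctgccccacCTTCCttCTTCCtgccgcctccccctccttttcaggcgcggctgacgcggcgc
Itgb7, chr15:102231946-102232185, minus strand: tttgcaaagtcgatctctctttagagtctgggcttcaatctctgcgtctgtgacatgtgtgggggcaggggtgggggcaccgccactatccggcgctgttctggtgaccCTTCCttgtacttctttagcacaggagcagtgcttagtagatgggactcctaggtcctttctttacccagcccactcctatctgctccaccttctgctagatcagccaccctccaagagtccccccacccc
Cd44, chr2:102901676-102901915, minus strand: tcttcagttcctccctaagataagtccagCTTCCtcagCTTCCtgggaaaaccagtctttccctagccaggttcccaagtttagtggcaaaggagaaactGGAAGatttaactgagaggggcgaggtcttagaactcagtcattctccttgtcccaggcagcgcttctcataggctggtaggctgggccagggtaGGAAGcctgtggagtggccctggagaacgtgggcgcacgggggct
The Itga4 run had 0 matches to GGAAG on either strand, Itgb7 and Icam1 had 1 each, Itgb1 had 2 and Cd44 had 4. Of 32851 RefSeq promoter windows of the same length, 62.2% held at least 1. TGNGGT, a pattern looser than the RUNX core TGYGGT (Y being C or T), was searched with N as any base. It was found 2 times in Itga4 and once in Itgb1 and not in the other 3 windows, against 39.0% of all windows. The Itgb1 match and 1 of the 2 in Itga4 read ACCCCA, the reverse complement of TGGGGT, which is not a RUNX core. The GC box GGGCGG of Sp and KLF factors was found once each in Itga4, Itgb1 and Icam1 (31.3% of all windows), and CCCNNGGG, the spaced pair bound by EBF1, once in Itga4 (11.4%). The CCCNNGGG match and the GC box in Itga4 do not overlap. AATAC and AATAT, AT-rich cores reported for ARID5B, were searched on both strands as well. AATAC had 1 match, in Icam1 (20.7% of all windows), and AATAT had none in the 5 windows (22.9%). G and C made up 63.3% of the Itga4 window, 68.3% of Itgb1, 55.8% of Itgb7, 55.0% of Cd44 and 64.2% of Icam1, and the median over all windows was 52.1%. A match is a description of the letters and not a bound site.

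Within wildtype, Cd44 was by far the most abundant of the 9 genes and Selplg the least. Levels were compared between genes as CPM per kilobase of annotated exon. Cd44 averaged 148 ± 4.23 CPM per kilobase (SD, n = 2), followed by Itgal at 31.6 ± 3.42. Itgb7 (21.0 ± 2.49), Itgb2 (18.9 ± 1.02) and Itgb1 (18.3 ± 1.34) came next, and neighbours among these 3 overlapped between the wildtype libraries. Itga4 lay below them at 14.5 ± 0.422. Icam2 (5.43 ± 0.0963) and Icam1 (5.20 ± 0.783) overlapped each other, and Selplg was at 2.86 ± 0.0801. The order in the middle depends on the length used: per kilobase of the longest annotated transcript Itga4 was at 20.8 and Itgb1 at 19.6 in wildtype, so their order turned. In overexpression-labelled library 1 the order was different, with Itgb1 at 36.8 CPM per kilobase above Cd44 at 27.9, and with Itgal at 0.707 and Itgb7 at 0.331 at the bottom.

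**Figure D1:**
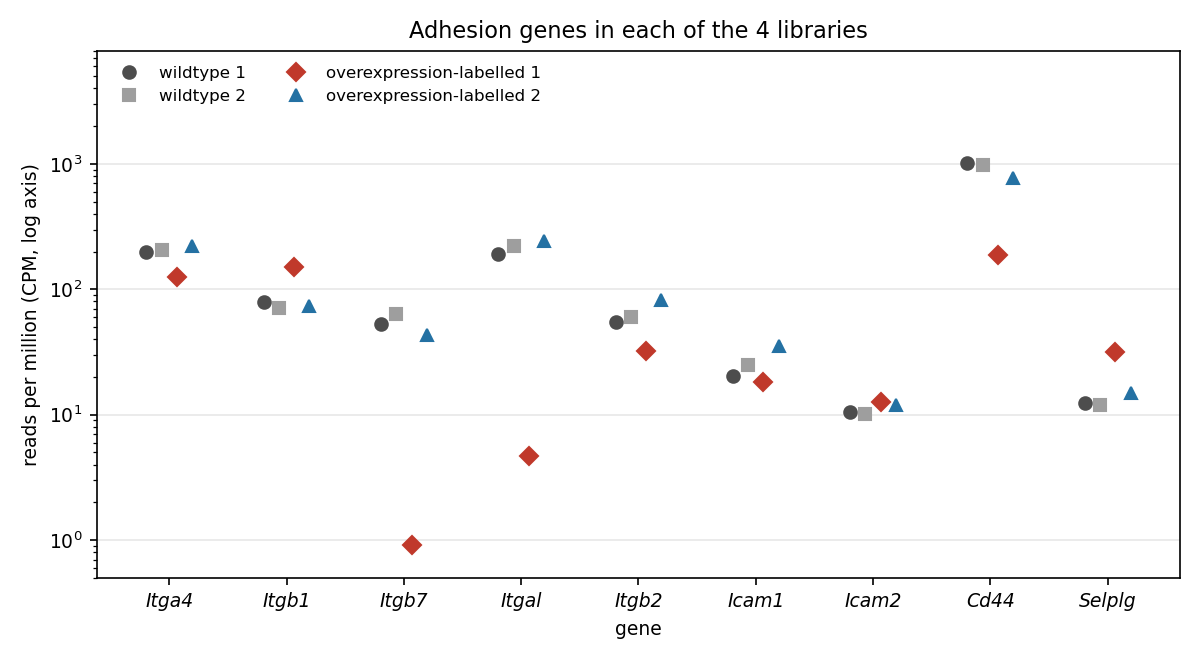
Level of each of the 9 adhesion genes (x axis) in CPM on a log axis (y axis), with 1 symbol per library. The 2 wildtype libraries and overexpression-labelled library 2 lie close together, while overexpression-labelled library 1 lies far lower for Itgb7 (0.916 CPM) and Itgal (4.65 CPM) and above the rest for Itgb1 (150.2 CPM) and Selplg (31.7 CPM).

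Compared with wildtype, the first overexpression-labelled library held far fewer transcripts of Itgal and Itgb7, less Cd44, Itgb2 and Itga4, and more Itgb1 and Selplg, while Icam1 and Icam2 did not pass the test. Of the 9 genes, 5 fell and 2 rose (limma adjusted p under 0.05 over all genes tested). Among all genes tested, 61.2% passed in this comparison, 34.4% lower and 26.8% higher, so a count of 7 of 9 is not far above the background. The median difference was -0.84 log2 units over the 9 genes and -0.15 over all genes tested. How all genes split into lower and higher depends on the filter and the scaling. The filter asks for reads in 2 libraries, so genes read in overexpression-labelled library 1 alone were not tested. Genes absent there alone could be tested. With low-read genes left in, more genes were called higher than lower. With limma-voom, or library totals without Rn45s, the split was nearly even. Differences are on the deposited log2 scale, and folds are ratios of normalised reads. A single library has no spread of its own, and that of the wildtype pair stands in for it, so the test compares this library and not the genotype. In the same library the B lineage markers summed to 3439 CPM, with Cd74 low and Cd79b, Pax5 and Ebf1 high, the pro-B and pre-B markers to 4133 CPM and the T and NK cell markers to 2.68 CPM, against at least 15787, at most 36.3 and at least 56.7 CPM in wildtype. Plasmacytoid dendritic cell markers summed to 162.7 CPM there, against at least 340.6 CPM in wildtype, and Siglech had 4 reads against 1129 and 321. The part of all these markers in these differences was not tested. With low-read genes left in, the calls of Selplg, Itgb1 and Itgb2 were lost (adjusted p = 0.0541, 0.0823 and 0.0512 by limma) and 4 of 9 passed.

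The alpha chain shared by VLA-4 and the gut-homing integrin fell in overexpression-labelled library 1. Itga4 (ENSMUSG00000027009.18, chromosome 2, 79255426 to 79333123, GRCm38) stood at 198.5 and 206.9 CPM in wildtype, and at 124.7 and 222.6 CPM in the overexpression-labelled libraries 1 and 2. The first of the overexpression-labelled libraries was thus the lowest of the 4 and the second the highest. Itga4 fell by 0.84 in overexpression-labelled library 1 (SE 0.132, limma adjusted p = 0.000113), a 1.80-fold lower level. The gene overlaps Cerkl on the opposite strand, and whether the counting used strand is not given in the sources used here; Cerkl itself had 21 to 75 reads per library.

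The beta chains that pair with Itga4 went opposite ways in overexpression-labelled library 1. Itgb1 (ENSMUSG00000025809.15, chromosome 8, 128685654 to 128733200) stood at 78.7 and 70.9 CPM in wildtype, and at 150.2 and 73.0 CPM in the overexpression-labelled libraries 1 and 2. Only the first overexpression-labelled library lay outside the wildtype range. Itgb1 rose there by 0.85 (SE 0.153, limma adjusted p = 0.000351), or 1.81-fold. Itgb7 (ENSMUSG00000001281.10, chromosome 15, 102215995 to 102231944) stood at 53.4 and 63.1 CPM in wildtype, and at 0.916 and 43.2 CPM in the overexpression-labelled libraries 1 and 2. The value of overexpression-labelled library 1 rests on 14 reads (exact 95% Poisson interval 7.65 to 23.5, counting error only), against 1075 and 896 in wildtype. Itgb7 fell by 4.83 on the deposited scale (SE 0.236, limma adjusted p = 1.7e-09) and differed by -6.11 as log2 of normalised reads plus 0.5, a 70.3-fold lower level. Of all genes tested, 72 had a larger fall on the deposited scale.

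The ratio between those beta chains changed more than either level alone. Per kilobase, Itgb7 stood at 0.999 and 1.31 times Itgb1 in the wildtype libraries, at 0.00899 times in overexpression-labelled library 1 and at 0.872 times in overexpression-labelled library 2. The ratio in overexpression-labelled library 1 was 129-fold below the wildtype mean of 1.16 ± 0.220 (SD, n = 2). Itga4 stood at 0.737 and 0.852 times Itgb1 in wildtype, 0.242 times in overexpression-labelled library 1 and 0.890 times in overexpression-labelled library 2. These ratios are taken within a library and do not depend on its scaling. They compare transcripts, not surface heterodimers.

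Both LFA-1 chains fell in overexpression-labelled library 1, the alpha chain far more than the beta chain. Itgal (ENSMUSG00000030830.18, chromosome 7, 127296260 to 127335138) stood at 191.5 and 223.3 CPM in wildtype, and at 4.65 and 243.9 CPM in the overexpression-labelled libraries 1 and 2. Its 71 reads in overexpression-labelled library 1 (exact 95% Poisson interval 55.5 to 89.6) compare with 3859 and 3170 in wildtype and 4964 in overexpression-labelled library 2. Itgal fell by 5.21 (SE 0.167, limma adjusted p = 3.68e-11), a 49.4-fold lower level, and 49 genes tested had a larger fall on the deposited scale. Itgb2 (ENSMUSG00000000290.13, chromosome 10, 77530252 to 77565708), the beta chain common to the leukocyte integrins, stood at 55.4 and 59.8 CPM in wildtype, and at 32.5 and 81.8 CPM in the overexpression-labelled libraries 1 and 2. The overexpression-labelled libraries lay on opposite sides of wildtype. Itgb2 fell by 0.94 in overexpression-labelled library 1 (SE 0.174, limma adjusted p = 0.000444), or 1.96-fold. Per kilobase Itgal was at 1.61 and 1.73 times Itgb2 in wildtype, 0.0664 times in overexpression-labelled library 1 and 1.39 times in overexpression-labelled library 2, so the ratio was 25.2-fold below the wildtype mean in overexpression-labelled library 1. Itgb2 also pairs with Itgam, the alpha chain of the neutrophil and macrophage integrin Mac-1, which had 190 and 133 reads in wildtype, 115 in overexpression-labelled library 1 and 706 in overexpression-labelled library 2.

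**Figure D2:**
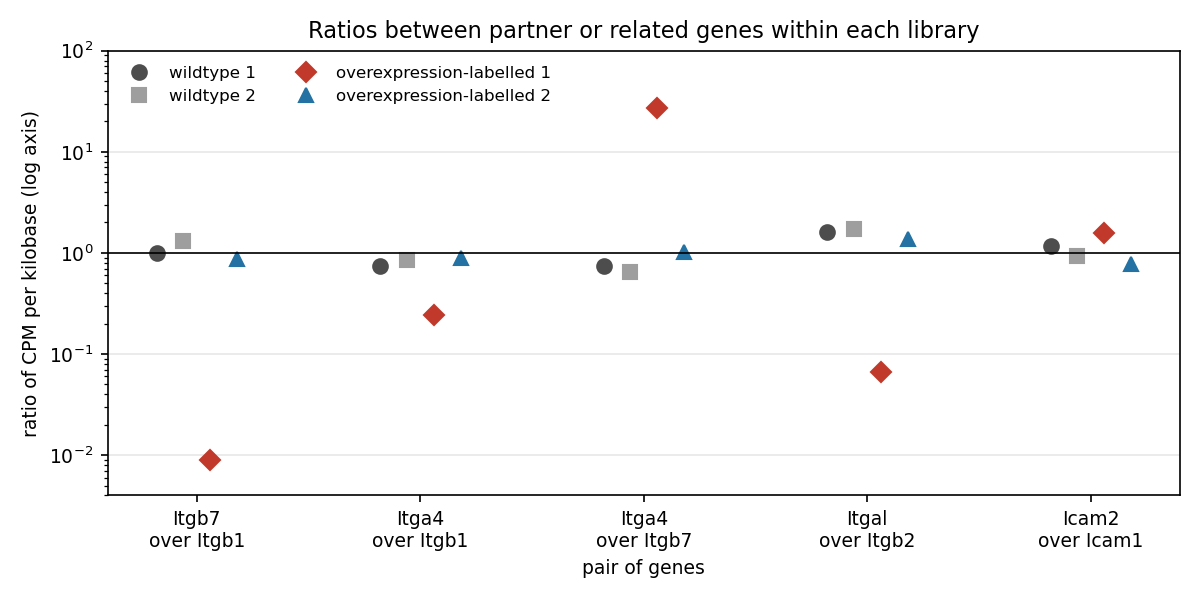
Ratios of CPM per kilobase between pairs of the genes within each library (y axis, log scale; the line marks 1), with 1 symbol per library. In overexpression-labelled library 1 the ratio of Itgb7 to Itgb1 is 0.00899 and that of Itgal to Itgb2 is 0.0664, far below the other 3 libraries, and the ratio of Itga4 to Itgb7 is 27.0.

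Neither ICAM counter-receptor of LFA-1 passed the test in overexpression-labelled library 1. Icam1 (ENSMUSG00000037405.8, chromosome 9, 21015985 to 21028817) stood at 20.3 and 25.1 CPM in wildtype, and at 18.3 and 35.4 CPM in the overexpression-labelled libraries 1 and 2. Its difference in the first was -0.41 (95% interval -0.91 to 0.083, limma adjusted p = 0.134). Icam2 (ENSMUSG00000001029.15, chromosome 11, 106377656 to 106388075) stood at 10.5 and 10.2 CPM in wildtype and at 12.7 and 12.0 CPM in overexpression-labelled libraries 1 and 2. Its difference in overexpression-labelled library 1 was 0.13 (95% interval -0.46 to 0.72, limma adjusted p = 0.693), so a change of up to 0.72 log2 units is within the interval. An antisense gene, Gm47079, overlaps Icam1 in the annotation and was not analysed here.

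Cd44 and Selplg moved apart. Cd44 (ENSMUSG00000005087.17, chromosome 2, 102811141 to 102901665), the receptor for the matrix sugar hyaluronan, stood at 1025 and 984.2 CPM in wildtype, and at 189.0 and 778.5 CPM in the overexpression-labelled libraries 1 and 2. It was lower in both overexpression-labelled libraries than in either wildtype library. Cd44 fell by 2.55 in overexpression-labelled library 1 (SE 0.118, limma adjusted p = 9.91e-10), a 5.89-fold lower level. Selplg (ENSMUSG00000048163.13, chromosome 5, 113818536 to 113832644) encodes PSGL-1, the main ligand of P-selectin on leukocytes. It stood at 12.5 and 12.0 CPM in wildtype, and at 31.7 and 14.98 CPM in the overexpression-labelled libraries 1 and 2, higher in both overexpression-labelled libraries than in wildtype. Selplg rose by 1.14 in overexpression-labelled library 1 (SE 0.240, limma adjusted p = 0.00112), or 2.35-fold.

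**Figure D3:**
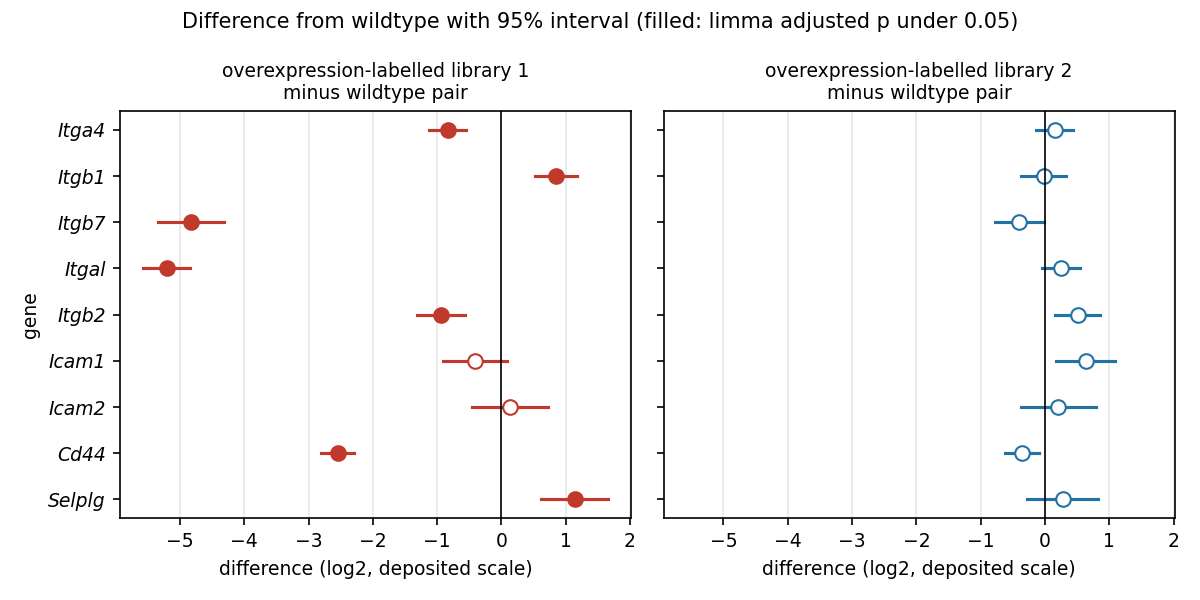
Difference of each overexpression-labelled library from the wildtype pair (x axis, log2 units on the deposited scale) for each of the 9 genes (y axis), with bars for the 95% interval from limma and filled points for adjusted p under 0.05. In the left panel 7 points are filled, from -5.21 for Itgal to 1.14 for Selplg; in the right panel 0 are filled and all lie between -0.40 and 0.63.

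Overexpression-labelled library 2, whose Arid5b level was just below that of wildtype, had no called difference in the 9 genes. By limma 0 of the 9 passed, where 1.66% of all genes tested did (0.769% higher and 0.888% lower). At an unadjusted p under 0.05 there were 4 (Itgb7, Itgb2, Cd44 and Icam1, against 15.9% of all genes), and limma-voom on the recovered reads called 1, Icam1. The largest differences were 0.63 for Icam1 (95% interval 0.17 to 1.09, limma adjusted p = 0.174) and 0.51 for Itgb2 (0.16 to 0.86, adjusted p = 0.15). Itgb7 differed by -0.40 (-0.78 to -0.016, adjusted p = 0.293), Cd44 by -0.35 (-0.62 to -0.087, adjusted p = 0.186), Selplg by 0.28 (-0.27 to 0.83, adjusted p = 0.637) and Itgal by 0.25 (-0.051 to 0.55, adjusted p = 0.41). Icam2 differed by 0.21 (-0.38 to 0.79), Itga4 by 0.15 (-0.14 to 0.44) and Itgb1 by -0.019 (-0.37 to 0.33). Neutrophils carry Itgb2 with Itgam, and the summed neutrophil markers were 1633 CPM in this library against 7.15 and 110.4 CPM in wildtype; their part in the Itgb2 value was not tested. The number of genes called in this comparison moves with the scaling: it was 97 higher and 112 lower, 13 higher and 9 lower with recomputed size factors, and 457 higher and 315 lower with limma-voom.

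The overexpression-labelled libraries were tested against each other in a fit of all 4 libraries, with the spread again taken from the wildtype pair. By limma 8 of the 9 genes differed, where 52.6% of all genes tested did (22.4% higher and 30.1% lower in library 1). Itgal (-5.46, adjusted p = 1.45e-10), Itgb7 (-4.43, adjusted p = 2.02e-08), Cd44 (-2.19), Itgb2 (-1.44), Icam1 (-1.05) and Itga4 (-0.99) were lower in library 1 than in library 2. Itgb1 (0.87) and Selplg (0.86) were higher. Among the comparisons by limma-trend Icam1 passed in this one alone (limma adjusted p = 0.00411), its values lying below wildtype library 1 in overexpression-labelled library 1 and above both wildtype libraries in library 2. Icam2 differed by -0.075 (95% interval -0.75 to 0.60), with a sign that turned under library totals, totals without Rn45s, recomputed size factors and limma-voom.

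Grouped as labelled, the 2 overexpression-labelled libraries were compared with the 2 wildtype libraries. By limma 0 of 9 passed, as did 0.0% of all genes tested, 0 of 9 had an unadjusted p under 0.05 (2.22% of all genes), and limma-voom called 0. Itgb7 averaged 11.21 ± 0.144 log2 units in wildtype and 8.59 ± 3.13 in the overexpression-labelled group (SD, n = 2 each; limma adjusted p = 0.726). Itgal averaged 13.01 ± 0.132 and 10.54 ± 3.86 (adjusted p = 0.726 by limma). The spread within the overexpression-labelled group exceeded the difference for both genes. The groups did not overlap in 4 of the 9 genes, higher for Selplg and Icam2 and lower for Itgb7 and Cd44, where they did not overlap in 42.6% of all genes tested. That share is near the background. Without overexpression-labelled library 1 the differences of Itga4 (0.15), Itgb1 (-0.019), Itgal (0.25) and Itgb2 (0.51) turned sign.

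Other genes of integrin and selectin adhesion were read from a list of 84 symbols in the tables, of which 67 passed the filter on low reads. In overexpression-labelled library 1, 24 rose, 28 fell and 15 did not pass by limma, which is 77.6% called against 61.2% of all genes tested, with a median difference of -0.40. With low-read genes left in, 20 were called. Of the genes named below, Itga5, Itgav, Itgax, Itgb3, Itgb4, Jam2, Pecam1, St3gal6, Tln1, Fermt3, Rassf5, Fyb, Rsu1 and Cd48 then lost their calls, with limma adjusted p from 0.051 for Cd48 to 0.141 for Itgav. Each count by role below stands beside 26.8% of all genes called higher and 34.4% called lower, and a split both ways within a role is no result about that role. Among the 12 other alpha chains tested, 3 rose and 4 fell. The 3 that rose were Itga5, a fibronectin-binding chain, Itga6, a laminin-binding chain that can pair with the Itgb4 chain, and Itga9. In that order they had 43 and 15, 503 and 382, and 34 and 24 reads in wildtype. In overexpression-labelled library 1 they had 520, 3270 and 251 reads. Their differences were 3.49, 2.83 and 2.42 (limma adjusted p = 2.93e-06, 1.24e-08 and 6.23e-05), and in overexpression-labelled library 2 they had 16, 337 and 23 reads. Itga6 and Itga9 were named after their values were seen. Of the alpha chains that fell, Itgax, another partner of Itgb2, had 189 and 102 reads in wildtype and 3 in overexpression-labelled library 1. Itga11, a collagen-binding chain, had 174 and 158 reads and then 0, a level at least 55.7-fold lower when 3 reads in that library are taken as the limit (counting error only). Itgav, the vitronectin receptor chain, also fell (-0.91). Itgam did not pass (-0.40, limma adjusted p = 0.257). Of the other beta chains, Itgb4 rose (2.88), Itgb3 fell (-2.43) and Itgb5 did not pass.

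The ligands of the Itga4 integrins had few reads in every library. Vcam1, the ligand of VLA-4, had 2 and 0 reads in wildtype, 23 in overexpression-labelled library 1 and 6 in library 2, and Madcam1, the ligand of the Itgb7 integrin, had 0, 0, 0 and 1; neither was tested. Of the 6 genes tested among selectins and immunoglobulin-family counter-receptors 2 rose and 2 fell, among them Jam2 (1.42) and Pecam1 (-0.72). Of the enzymes that dress Selplg and other selectin ligands, 3 of 7 were higher and 3 lower, where 26.8% and 34.4% of all genes tested were. St3gal6 rose by 3.05, from 741 and 755 reads to 6382, while Gcnt1, which builds the branched O-glycan core, fell by 3.50, from 2264 and 1385 reads to 134. The tyrosine sulfotransferase Tpst2 fell too (-1.93). Fut7, the fucosyltransferase that completes sialyl Lewis x, had 0 reads in every library.

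Of 15 genes for inside-out activation, the machinery that switches integrins on, 5 rose and 8 fell in overexpression-labelled library 1 (61.2% of all genes tested were called). Rap1b, a small GTPase that leads to integrin activation, fell by 2.33, from 648.8 and 741.2 CPM to 151.6 CPM. Rapgef1, an exchange factor for Rap1, also fell (-2.27), as did the adaptor Fyb (-4.04). Tln1, which encodes talin, fell (-0.55), and so did Rassf5 (-0.62), a Rap1 effector needed for LFA-1 function in lymphocytes; the Rassf5 call was lost with totals without Rn45s and with limma-voom (limma adjusted p = 0.076 and 0.0894). Fermt3, the kindlin of blood cells, rose by 1.29 and Rasgrp2, another Rap1 exchange factor, by 0.90, while Apbb1ip did not pass (-0.32, adjusted p = 0.0747 by limma). Of 9 integrin adaptors and kinases 3 rose and 2 fell, or 55.6% called against the same 61.2%, with Ptk2b, the kinase PYK2, at -2.49, Zyx at -1.19 and Rsu1 at 1.08. All 15 remaining adhesion and membrane linkage genes tested passed, 7 higher and 8 lower, against 26.8% and 34.4% of all genes. Cd9, a tetraspanin, fell (-4.88), as did Alcam (-4.58) and Cd2 (-3.85), while Cd24a rose (2.06) and so did Cd48 (1.95), the ligand of Cd2; the rises of Cd24a and Cd48 were named after their values were seen.

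In overexpression-labelled library 2, 6 of the 67 genes passed, 3 higher and 3 lower, or 8.96% against 1.66% of all genes tested. Itgam rose by 1.75 (SE 0.244, limma adjusted p = 0.00403), beside the higher neutrophil markers of that library. Rsu1 rose by 1.45 (limma adjusted p = 0.00226), as it had in library 1, from 731 and 625 reads in wildtype to 1461 and 2261. Gcnt1 (-0.98) and Alcam (-1.03) fell, as they had in library 1. The called genes not named here also moved in the same direction as in library 1. With low-read genes left in, or with a filter of a mean of 10 reads, 0 of the list were called here, with recomputed size factors 2 and with limma-voom 14.

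**Figure D4:**
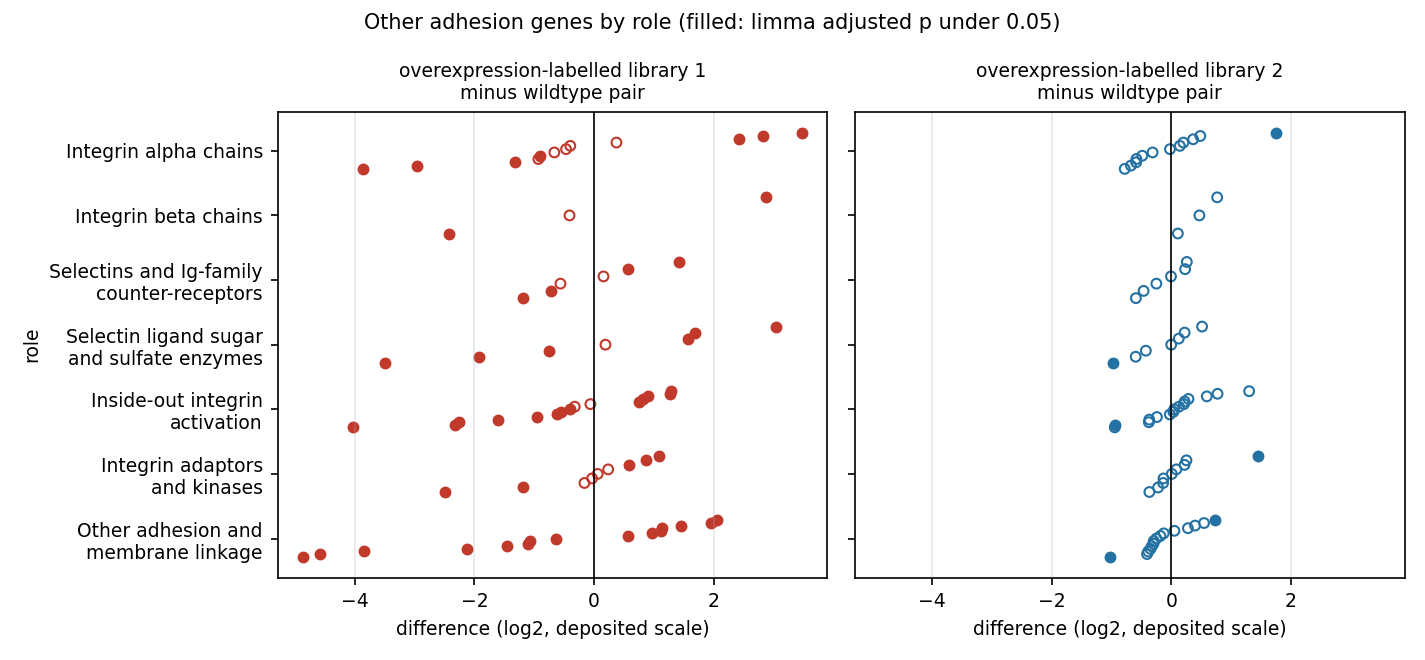
Differences of the 67 other adhesion genes tested (1 point per gene; x axis, log2 units on the deposited scale), grouped by role (y axis), for each overexpression-labelled library against the wildtype pair, with filled points for limma adjusted p under 0.05. Each role holds both rises and falls in overexpression-labelled library 1 (24 rises and 28 falls in all), while in library 2 most points lie near 0 and 6 are filled.

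Genes with a pattern like that of Itgal and Selplg across the libraries were sought by the smallest distance between values centred on each gene's mean over the 4 libraries, among 8867 genes with a mean of at least 5 CPM. Itgal had the largest fall of the 9 genes on the deposited scale only; as log2 of normalised reads plus 0.5 it differed by -5.62 and Itgb7 by -6.11. Most like Itgal were Ms4a6b (distance 0.073; 655 and 570 reads in wildtype, then 1 and 837), Abca5 (0.138; 865 and 730, then 5 and 1077) and Rasgrp1 (0.17; 3289 and 2794, then 66 and 3984). Most like Selplg, the gene of the 9 with the largest rise, were Rbl1 (0.0294; 256 and 168, then 488 and 305), Snrpg (0.0461; 975 and 677, then 1876 and 1215) and Gpatch1 (0.0471; 128 and 86, then 266 and 153). With 4 libraries, of which 1 stands apart, many genes share such a pattern.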

How the data were processed

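RNA-seq was done on B220+ marrow B cells, with libraries built from 1 ug of RNA per the labels' protocols. The submitters' processing notes name STAR, HTSeq, DESeq2 and mm10; the versions, settings and annotation the authors used are not given in the sources used here. The authors deposited log2 values, and genes with no read all sit at 4.949, in the form of a variance stabilizing transformation. Inverting it gave whole reads divided by a size factor (100% of values whole within 0.01), and reads, CPM and folds come from these.

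Samples were grouped by genotype label. A misspelled label was read as wildtype, and for overexpression-labelled library 1 the header and the title disagree by 1 digit. Tested genes (12617) had 10 reads or more at the median library size in 2 libraries and 15 or more in all. The test was limma-trend on the deposited log2 values (limma 3.58.1, R 4.3.3, two-sided, Benjamini-Hochberg over all genes tested, threshold 0.05). It was also run on simulated data in which few genes changed between otherwise equal libraries. That setting is unlike overexpression-labelled library 1, and the comparison of overexpression-labelled library 2 was not simulated, so no support is drawn from it. An exact permutation test of 2 libraries against 2 cannot give a p below 0.333. The 9 genes, the adhesion list, its naming rule and the alternatives were chosen with earlier results of these data known. Named from the list were 10 preset genes, the 3 largest called changes per role in overexpression-labelled library 1 among genes averaging 5 CPM or more, and further genes picked after their values were seen; 1 preset gene is not reported here. Coordinates and lengths are from GENCODE M21 (GRCm38). Alternatives were other filters, scales, size factors, limma-voom, a robust prior and leaving out each library.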

Additional observations from a re-analysis of the deposited data

How the results depend on the processing

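Directions of the 9 genes in overexpression-labelled library 1 held under all 9 alternatives of filter, scale, size factor, test and prior, and without either wildtype library. No paired analysis was possible because nothing in the labels links a wildtype library to an overexpression-labelled one. With low-read genes left in, 2642 genes and 4 of the 9 passed in library 1, and 2486 genes and 5 of the 9 between the overexpression-labelled libraries. In library 2 the number of genes called was 0 with low-read genes left in and 0 with a mean of 10 reads, 56 with log2 of normalised reads plus 0.5, 22 with recomputed size factors, 431 with library totals, 424 with totals without Rn45s and 772 with limma-voom (457 higher), which called 1 of the 9. In the comparison of both groups, leaving out each library in turn gave 0 to 7721 genes and 0 to 7 of the 9: 1 gene without wildtype library 2, 209 without overexpression-labelled library 1 and 7721 without overexpression-labelled library 2. There the difference ranged from -0.84 to 0.15 for Itga4, -0.019 to 0.85 for Itgb1, -5.21 to 0.25 for Itgal, -0.94 to 0.51 for Itgb2 and -0.41 to 0.63 for Icam1, which was -0.020 without wildtype library 1. The first value of Itgb1 and the last of Itga4, Itgal, Itgb2 and Icam1 came without overexpression-labelled library 1, and the opposite ends without library 2. Icam2 between the overexpression-labelled libraries turned to 0.018 with recomputed size factors, 0.078 with library totals, 0.12 with totals without Rn45s and 0.089 with limma-voom. In library 2 Zyx turned from 0.0072 to -0.0070 with library totals, -0.00027 with totals without Rn45s and -0.0065 with limma-voom, and St3gal4 to 0.00084 with log2 of normalised reads plus 0.5. The causes were not tested. In library 1 library totals moved the median of all genes by 0.12 log2 units and totals without Rn45s by 0.18. Counts of single libraries have no test without a wildtype library, since no residual degrees of freedom remain. With 2 libraries a group, their number limits the precision, and the 14 reads of Itgb7 in library 1 limit the size of its fold.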
